A study of Mus musculus with 44 samples.

Results

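The fragments described here are the long-range part of 5 contact maps: every restriction fragment lying more than 200 kb, and up to 2000 kb, from the genomic site whose contacts were read. They were chosen by distance alone and number 27162 of the 30070 fragments deposited, with 5354 to 5477 per map. A further 2236 fragments lie 50 to 200 kb from their site and 672 lie within 50 kb. The maps come from 4C-seq, in which chromatin is crosslinked and cut, DNA ends that lie close together in the nucleus are ligated, and the fragments joined to a chosen fragment, the bait, are sequenced. Nuclei were from liver and kidney of individual WT C57BL/6 mice aged 8 to 12 weeks, fed ad libitum and fixed with formaldehyde. The Pi3kap1 bait was read at zeitgeber time (ZT) 8, and the baits Mreg, Slc44a1, Slc45a3short and Slc45a3long at ZT20, where ZT counts hours from lights on. Each bait had 2 liver and 2 kidney libraries, but the deposited tables hold 1 value per tissue and fragment. No spread between libraries can therefore be computed, no comparison below carries a test, and each describes these pooled maps. The same series holds kidney RNA from WT and Bmal -/- mice, of which the 12 WT libraries serve here to annotate genes. These are from 129SV mice, also aged 8 to 12 weeks, on night-restricted feeding and sampled at ZT0 to ZT20.

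Contacts of any mammalian locus become rarer with linear distance. The decay is stepped rather than smooth, because chromosomes fold into domains, and contacts cross the domain borders less often than they form within them. Many borders carry sites for the factor CTCF, which halts the extrusion of chromatin loops by cohesin, and tissues tend to share borders more than they share the contacts between enhancers and genes inside them.

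Matching the spacing of the fragments to GRCm38 placed each bait at 1 position, with 100% of its fragments on GATC sites. The Mreg bait lies on chromosome 1 at 72212660, 353 bp from the start of Mreg, which encodes melanoregulin. The Slc44a1 bait lies on chromosome 4 at 53440213, 200 bp from the start of Slc44a1, a choline transporter. Slc45a3, a solute carrier, was read from positions 131962937 (Slc45a3long, 30 bp from the gene start) and 131971381 (Slc45a3short, 8414 bp from it) on chromosome 1. The Pi3kap1 label is read here as the adaptor gene Pik3ap1, whose start lies 336 bp from the bait at 41384766 on chromosome 19. Between 59.2% and 61.3% of the GATC fragments around each bait were deposited. All of those deposited contain the sequence CATG, against 9.52% to 10.4% of the others. The fragments analysed are thus the longer ones, with a median length of 435 to 450 bp per bait against 100 to 104 bp for those left out.

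The sequences of 7 distal fragments with a large gap between the tissues are printed first, as examples. They come from the 4 baits with windows past the threshold used below, and each is the fragment with the largest liver or kidney excess inside the 20 kb window that differed most in that direction. For Slc44a1 only the liver excess is shown. Each is read 5′ to 3′ from the plus strand of GRCm38, with GATC and CATG in capitals, and longer fragments are given from 1 GATC end to the nearest CATG.
Mreg bait, Fn1 (chr1:71649171-71649326): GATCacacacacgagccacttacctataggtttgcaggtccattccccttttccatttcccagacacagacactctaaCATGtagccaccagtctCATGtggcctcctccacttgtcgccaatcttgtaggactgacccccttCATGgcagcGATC
Mreg bait, intergenic (chr1:72565387-72565641): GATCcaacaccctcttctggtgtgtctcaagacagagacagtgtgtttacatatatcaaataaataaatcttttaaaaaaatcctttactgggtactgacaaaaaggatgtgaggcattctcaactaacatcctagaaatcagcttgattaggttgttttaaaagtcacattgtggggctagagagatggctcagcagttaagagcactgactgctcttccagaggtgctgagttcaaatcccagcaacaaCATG
Slc44a1 bait, Abca1 (chr4:53141521-53141640): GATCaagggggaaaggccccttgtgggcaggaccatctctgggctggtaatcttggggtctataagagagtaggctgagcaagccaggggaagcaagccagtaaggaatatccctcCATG
Slc45a3short bait, Ctse (chr1:131656836-131656983): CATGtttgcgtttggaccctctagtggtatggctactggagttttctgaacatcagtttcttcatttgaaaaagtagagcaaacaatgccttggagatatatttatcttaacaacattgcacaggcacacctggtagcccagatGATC
Slc45a3short bait, intergenic (chr1:132268297-132268465): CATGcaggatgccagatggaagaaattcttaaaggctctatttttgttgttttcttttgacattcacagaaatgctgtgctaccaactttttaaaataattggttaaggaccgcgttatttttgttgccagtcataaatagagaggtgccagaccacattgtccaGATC
Pi3kap1 bait, Mms19 (chr19:41972070-41972132): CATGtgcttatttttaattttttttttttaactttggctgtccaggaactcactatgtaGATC
Pi3kap1 bait, Tll2 (chr19:41091870-41092041): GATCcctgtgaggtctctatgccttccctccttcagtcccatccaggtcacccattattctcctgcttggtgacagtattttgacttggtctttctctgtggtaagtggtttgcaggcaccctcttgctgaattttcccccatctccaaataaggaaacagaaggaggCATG
The Fn1 fragment is printed whole, is 156 bp long, overlaps an exon of Fn1 and holds 3 CATG sites. Its signal was 0.237 in liver (SD from the deposited variance 0.0263) and 0.0653 in kidney (0.0267). The Abca1 stretch is intronic, and its 1010 bp fragment had 0.553 in liver (0.0434) and 0.374 in kidney (0.0433). Of the Slc45a3short pair, the fragment in an intron of Ctse had 0.257 in liver (0.0402) against 0.126 in kidney (0.0410), and the intergenic fragment had 0.102 (0.0311) against 0.312 (0.0302). Of the Pi3kap1 pair, the fragment in an intron of Mms19 had 0.174 in liver (0.0273) against 0.0480 in kidney (0.0250), and the one in an intron of Tll2 had 0.0974 (0.0516) against 0.338 (0.0498). The intergenic Mreg fragment had 0.0201 in liver (0.0187) and 0.0965 in kidney (0.0193).

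The signal is the authors' smoothed contact score, whose scale is not stated. Beyond 200 kb it ran from -0.0019 to 0.658, and neighbouring fragments, a median of 579 to 594 bp apart, correlated at 0.992 to 0.997 in liver, so fragments are not independent measurements. The median SD taken from the deposited variances was between 0.0119 and 0.0223 per bait and tissue. The SD of a difference was taken as the root of the summed squares of the liver and kidney median SDs, as if independent. It was 0.0169 for Slc45a3long, 0.0200 for Mreg, 0.0295 for Slc44a1, 0.0309 for Slc45a3short and 0.0313 for Pi3kap1. How the deposited variance was made is not given in the sources used here. Just inside 200 kb (190 to 200 kb) the mean per bait ran from 0.101 to 0.376 in liver and from 0.0955 to 0.431 in kidney, and just beyond it (200 to 210 kb) from 0.0764 to 0.386 and from 0.102 to 0.288. Sequencing depth is unknown. Kidney RNA carried 6 tubule markers, from 124 TPM for the water channel Aqp2 to 1474 TPM for the phosphate transporter Slc34a1. Of 6 hepatocyte markers, Ttr stood at 49.0 TPM and the other 5 between 0.0121 and 2.55 TPM. Liver RNA was not analysed here, so the liver label has no such check.

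The mean signal over the 180 distal windows of 20 kb per bait was 0.0401 in liver and 0.0399 in kidney for Mreg, and 0.0394 and 0.0385 for Slc45a3long. For the other 3 baits kidney was higher, with 0.0698 in liver and 0.0825 in kidney for Slc44a1, 0.0696 and 0.0764 for Slc45a3short, and 0.0605 and 0.0756 for Pi3kap1. Liver was thus higher for 2 of 5 baits. The Mreg difference of 0.00023 changed sign, to -0.00010, when windows began at 300 kb. Liver was higher in 50 of 180 windows for Slc44a1, 61 for Pi3kap1, 70 for Mreg, 75 for Slc45a3short and 87 for Slc45a3long.

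Distance bands showed where the maps parted (the plot of mean signal by distance band). Around Pik3ap1, liver had more signal than kidney between 50 and 200 kb (0.433 against 0.303, higher at 87.8% of 409 fragments). Between 200 and 500 kb the order turned, with 0.129 in liver and 0.189 in kidney, and liver was higher at 16.7% of 879 fragments. The position of the turn is set here by the band limits: kidney was already higher at 190 to 200 kb (0.256 against 0.219 in liver), and on the right liver was still higher at 200 to 220 kb (0.293 against 0.250). From 500 to 1000 kb the means were 0.0822 in liver and 0.0784 in kidney, and from 1000 to 2000 kb liver was again lower, 0.0285 against 0.0396. That last gap lay on the right side, toward higher coordinates, with 0.0331 in liver against 0.0609 in kidney. On the left it was 0.0243 against 0.0200.

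**Figure D1:**
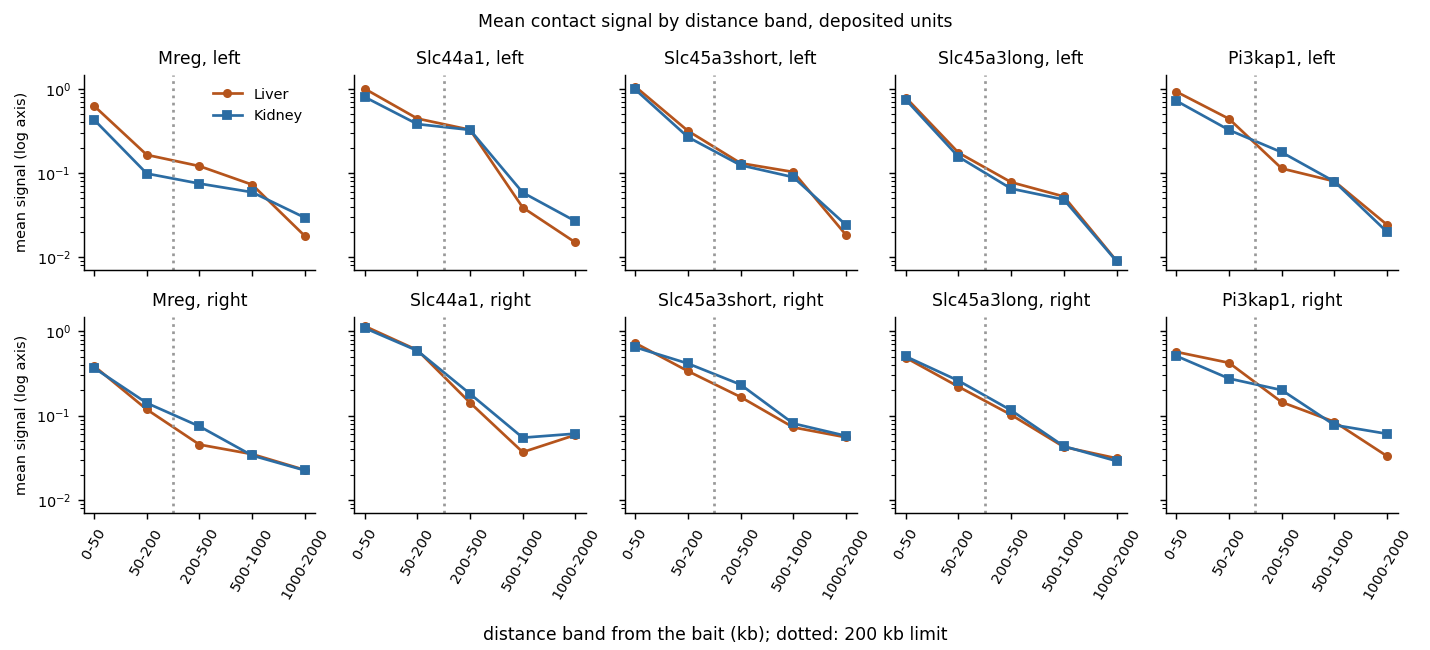
Mean deposited contact signal (log axis) in 5 distance bands for each bait, left side above and right side below, with circles for liver and squares for kidney. The dotted line marks 200 kb, beyond which the fragments described here lie; for the Pi3kap1 bait liver is higher in the 50 to 200 kb band and kidney in the 200 to 500 kb band on both sides.

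The Mreg map was lopsided between tissues. On the left, from 200 to 500 kb, liver averaged 0.121 and kidney 0.0749, with liver higher at 94.2% of 481 fragments. On the right, in the same band, liver averaged 0.0454 and kidney 0.0747, with liver higher at 14.5% of 477. In this band kidney had nearly equal signal on both sides, whereas liver had more on the left. In the bands next to it kidney was uneven too. It had 0.0986 on the left and 0.141 on the right from 50 to 200 kb, and 0.0592 and 0.0337 from 500 to 1000 kb. The order of the tissues on each side was already the same from 50 to 200 kb. There liver was higher at 94.5% of fragments on the left and 22.3% on the right. Beyond 1000 kb on the left the order turned, with 0.0179 in liver and 0.0295 in kidney.

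Around Slc44a1, kidney was higher in most distal bands. From 500 to 1000 kb it averaged 0.0567 against 0.0379 in liver, with liver higher at 26.9% of 1498 fragments. The left side from 200 to 500 kb was the exception, with 0.326 in liver and 0.325 in kidney, the largest distal level of any bait side in that band for both tissues. Slc45a3short differed most on the right from 200 to 500 kb, where liver had 0.167, kidney 0.234, and liver was higher at 3.11% of 450 fragments. The same band read from Slc45a3long gave 0.102 and 0.116, with liver higher at 28.7% of 456.

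**Figure D2:**
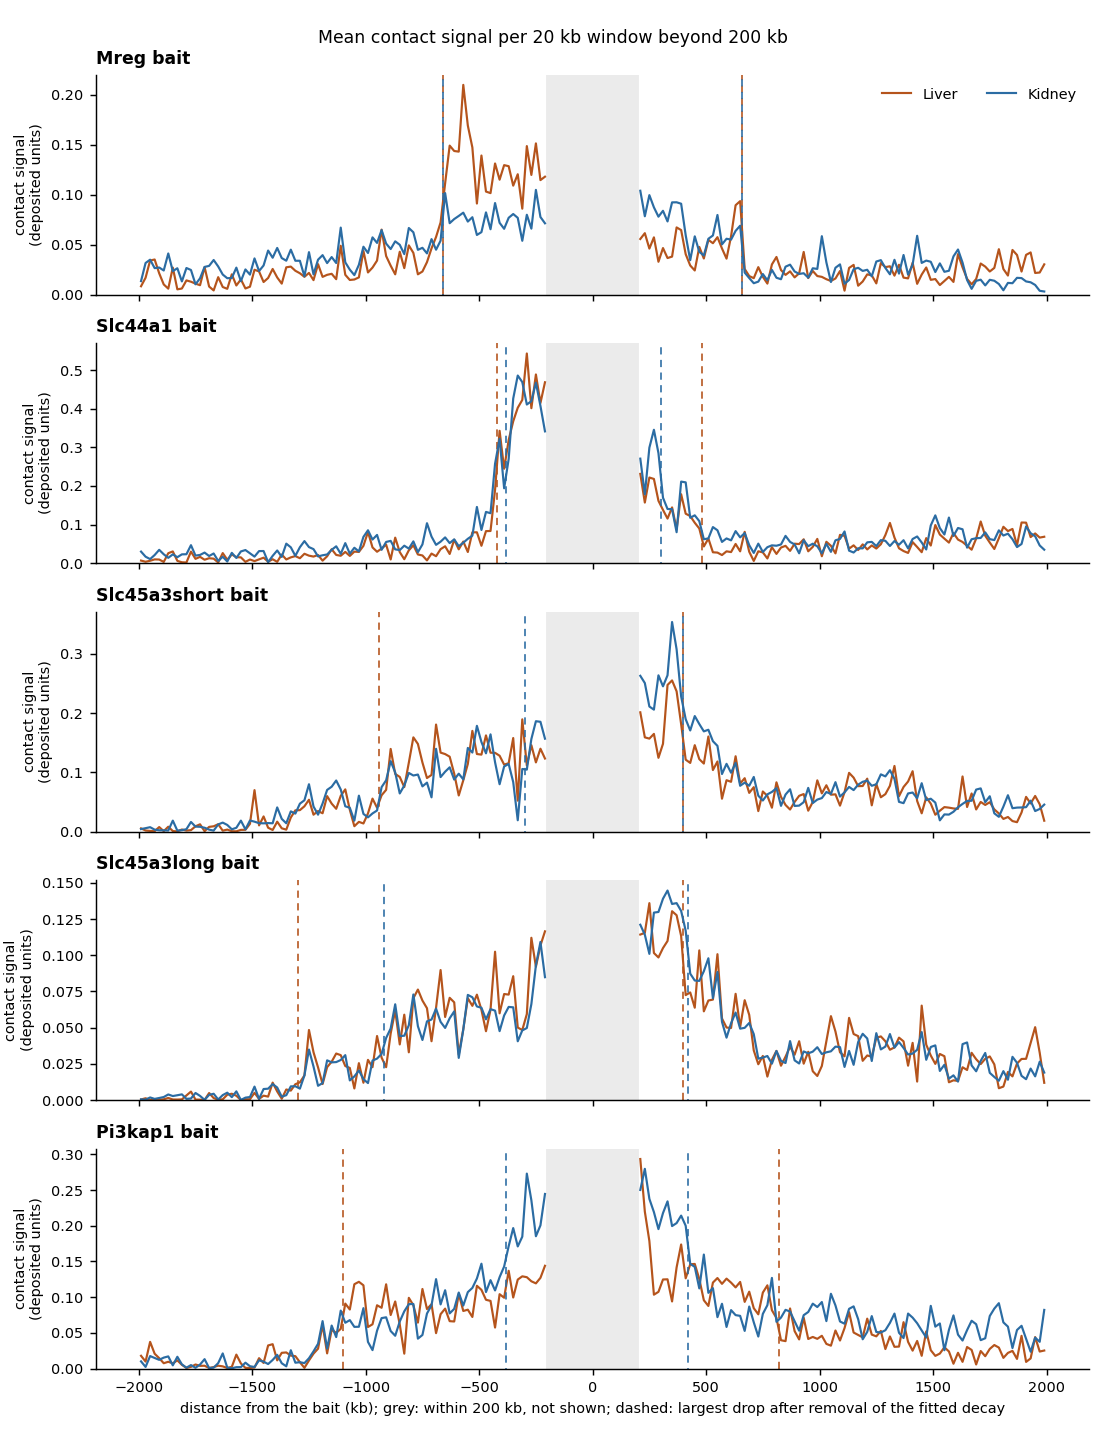
Mean deposited contact signal per 20 kb window against signed distance from each of the 5 baits (kb), liver in orange and kidney in blue; the grey block hides the first 200 kb. Dashed lines mark the largest drop per side and tissue after removal of the fitted decay, which coincides in both tissues at 660 kb on each side of the Mreg bait.

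The decay with distance was summarised by a straight line of window signal on log10 distance, fitted for each of the 10 bait sides and each tissue. The slope, in signal units per 10-fold distance, was negative in all 20 fits. It was steeper in liver on 4 sides and in kidney on 6. The 4 were left sides, of the baits read at ZT20, and the 6 were all 5 right sides plus the left side of Pi3kap1. The largest gaps were on the Mreg left side (-0.164 in liver, -0.0737 in kidney), the Pi3kap1 left side (-0.149 and -0.236) and the Slc45a3short right side (-0.157 and -0.238). On the Mreg right side the slope was -0.0354 in liver and -0.0787 in kidney, so the tissue with the steeper decay changed across the bait. The R2 of the line over windows ran from 0.251 for Slc44a1 right in liver to 0.897 for Pi3kap1 left in kidney. On 3 sides with small gaps, Slc44a1 left, Slc45a3short left and Pi3kap1 right, the sign of the gap changed with the distance range, and no direction is read from them. On the Pi3kap1 right side it also changed with the scale of the fit. The split into left and right sides above counts these 3 sides. Without them, only Mreg left and Slc45a3long left were steeper in liver.

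**Figure D3:**
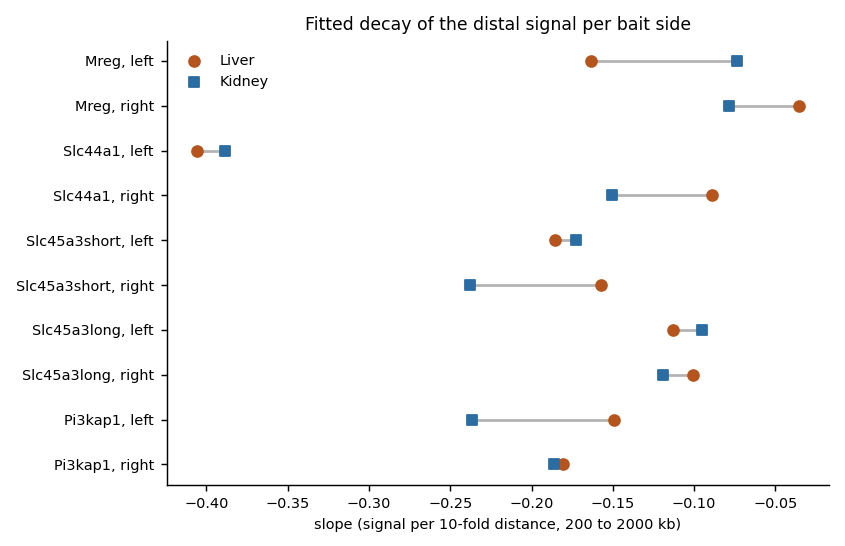
Fitted slope of the distal signal (signal units per 10-fold distance from 200 to 2000 kb) for each bait side, liver as circles and kidney as squares joined by a line. A point further left is a steeper decay; the Mreg left side and the Pi3kap1 left side lie furthest apart, in opposite order.

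A window was counted as different where its tissue means were at least 0.05 apart, a size fixed as a rule and not a test. Of the 900 distal windows, 26 (2.89%) were higher in liver and 55 (6.11%) were higher in kidney. The background over all windows within 2000 kb of a bait was 6.6% for liver and 6.7% for kidney. The kidney share was thus close to its background, and the liver share was lower than its own. The balance depends on centring: with the median difference of each bait removed, the counts were 36 and 44, and with both tissues scaled to the same mean, 26 and 50. Within 200 kb, 40 of 100 windows were higher in liver and 12 in kidney, so the pooled balance was the other way round nearer the bait. By bait this held for Slc44a1, Slc45a3short and Pi3kap1. Mreg had more windows higher in liver at both ranges, with 6 and 0 within 200 kb. Slc45a3long had 1 higher in liver and 4 in kidney within 200 kb, and none beyond. The signal is also larger within 200 kb, and the limit of 0.05 is not scaled to it. Of the 26 liver windows, 22 lay on left sides, and of the 55 kidney windows, 39 lay on right sides and 39 lay between 200 and 500 kb. Adjacent windows joined into 17 regions higher in liver, 12 of them a single window, and 32 higher in kidney, 21 of them a single window.

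**Figure D4:**
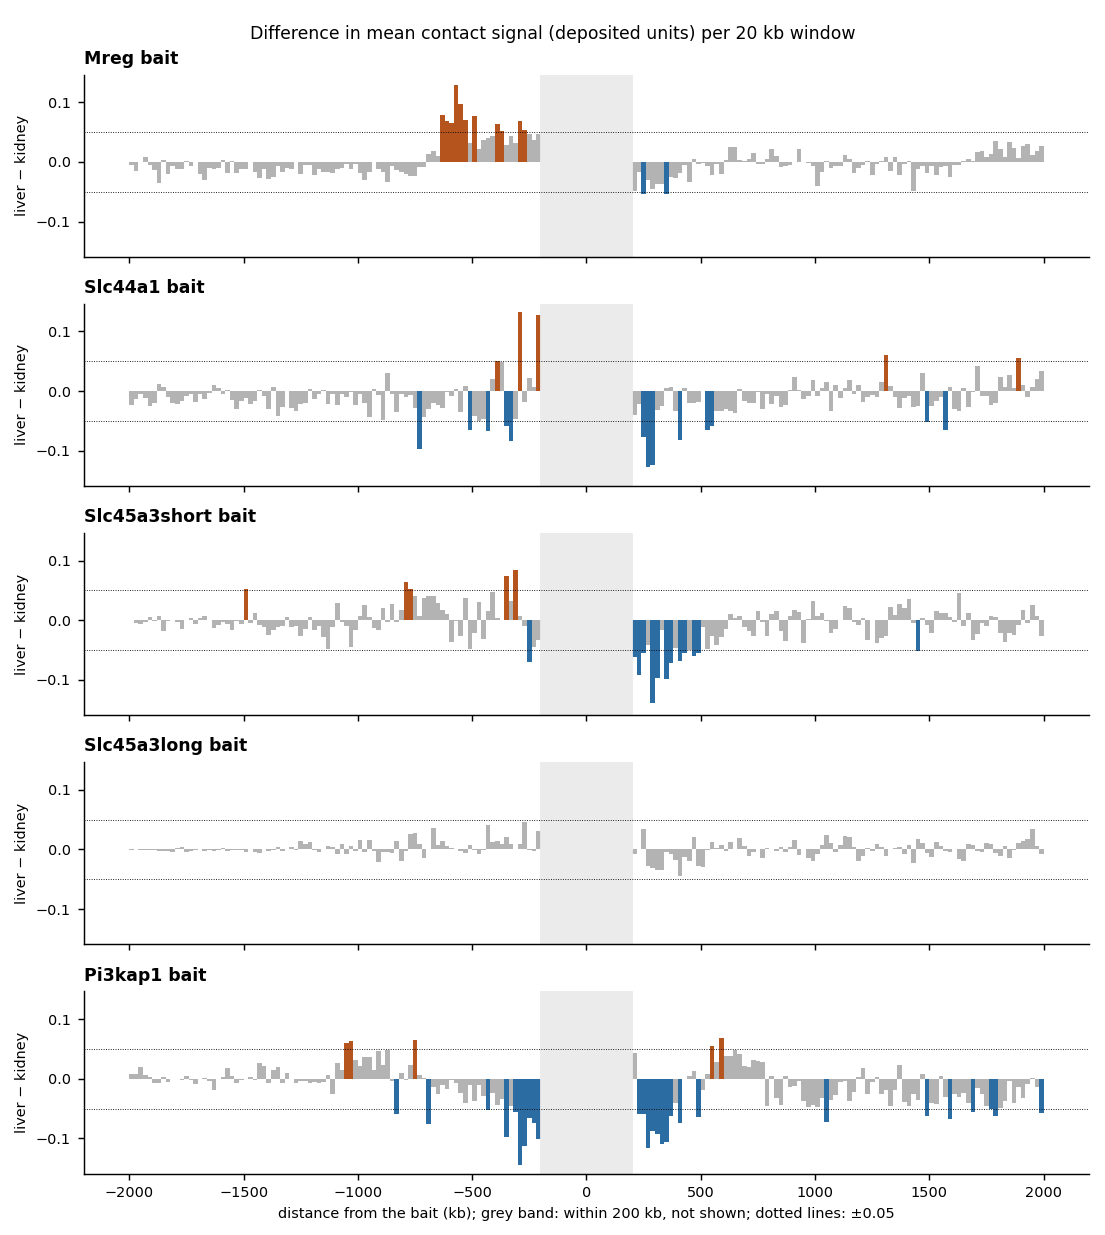
Liver minus kidney in mean deposited contact signal per 20 kb window against distance from each bait (kb), coloured where the difference is at least 0.05 in size (orange higher in liver, blue higher in kidney). The orange block left of the Mreg bait and the blue blocks on both sides of the Pi3kap1 bait are the longest runs; Slc45a3long has no coloured window.

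From the Mreg bait, 11 of 180 windows were higher in liver (6.11%, background 8.5%), all on the left. A further 2 were higher in kidney (1.11%, background 1.0%), both on the right. The liver share was below its background, and the kidney share was close to its own. The longest liver region of any bait ran from 520 to 640 kb, 6 windows in a row on chromosome 1 from 71572660 to 71692659. It covers Fn1, which encodes fibronectin, a matrix and plasma glycoprotein secreted by hepatocytes, and the end of Atic, an enzyme of purine synthesis. Over that region liver averaged 0.160 and kidney 0.0764. Inside it, the window at 560 to 580 kb had 0.210 in liver (deposited SD 0.0252) and 0.0820 in kidney (0.0252), and the window at 620 to 640 kb had 0.149 (0.0264) and 0.0715 (0.0266). The liver profile peaked next to the Fn1 start, which lies 559 kb from the bait, while the kidney profile stayed between 0.0715 and 0.0820 over those 6 windows. In the window at 640 to 660 kb, which holds the Atic start, liver had 0.111 and kidney 0.102, the largest kidney excess over its own fitted decay (0.0440). Fn1 RNA in kidney was 8.61 ± 2.06 TPM (SD, n = 12) and Atic RNA 8.33 ± 0.654 TPM (SD, n = 12). On the right, the windows higher in kidney lay at 240 to 260 kb within March4, a ubiquitin ligase, with 0.0460 in liver and 0.0996 in kidney, and at 340 to 360 kb, with 0.0380 and 0.0923. With the median difference removed, neither passed 0.05 (-0.0483 and -0.0491), and 0 Mreg windows were higher in kidney.

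**Figure D5:**
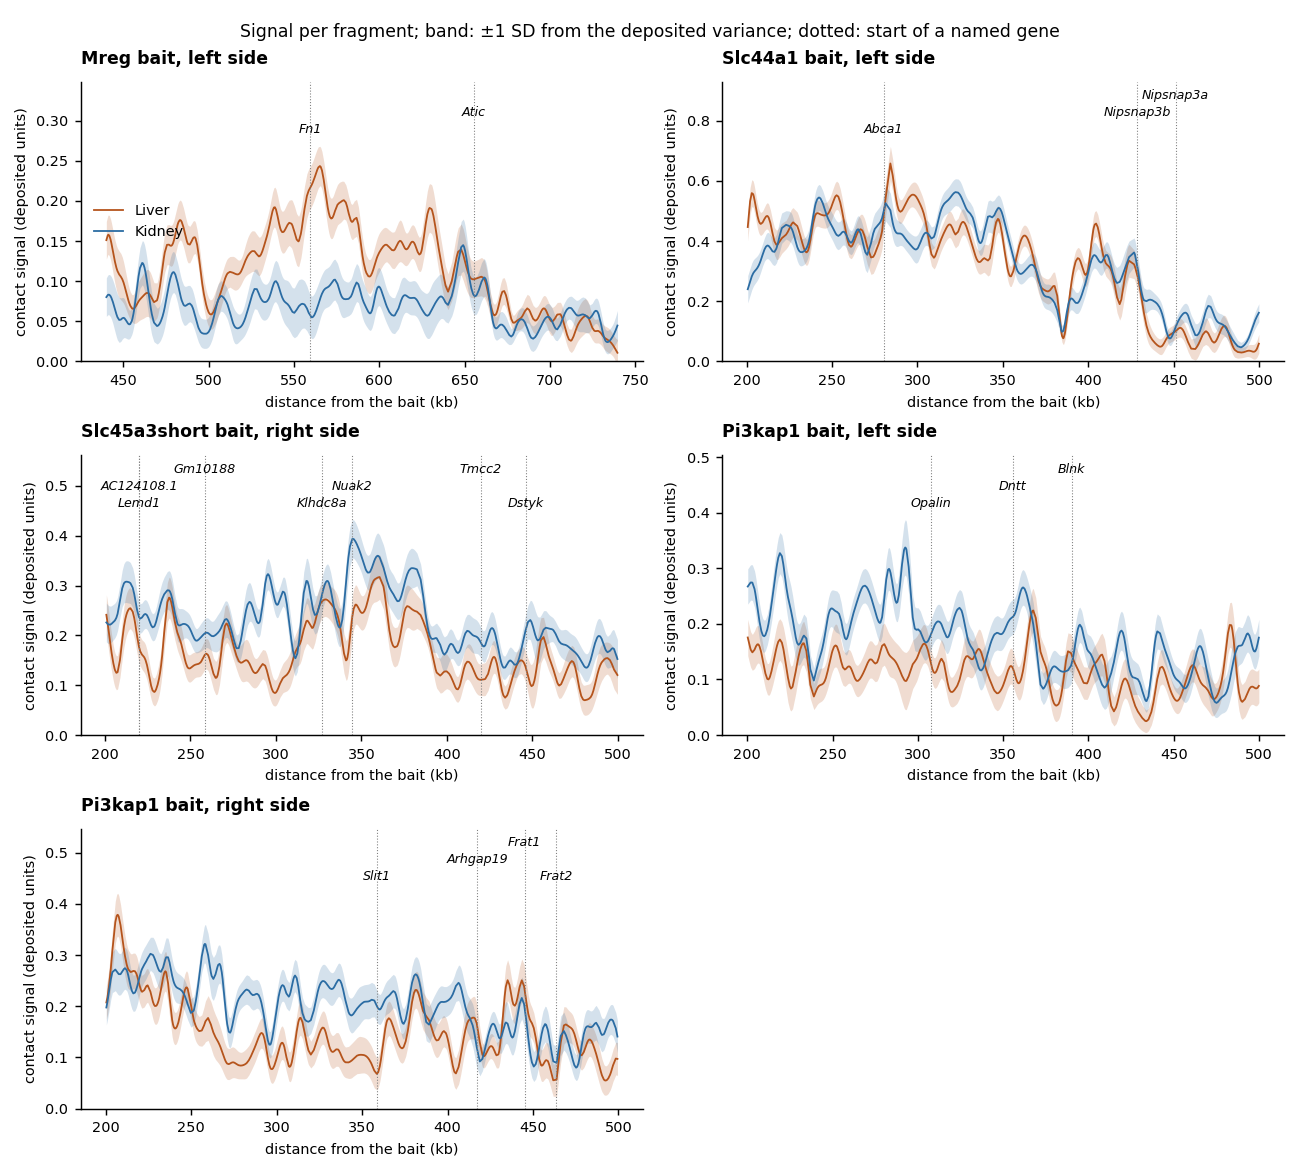
Deposited contact signal per fragment against distance from the bait (kb) for 5 stretches with named windows, liver in orange and kidney in blue, with a band of ±1 SD from the deposited variance and dotted lines at starts of named genes. The bands separate over Fn1 on the Mreg left side, where the liver window mean reaches 0.210, and over most of the Pi3kap1 left side out to 320 kb, where kidney is higher.

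From the Slc44a1 bait, 5 windows were higher in liver (2.78%, background 7.5%) and 13 in kidney (7.22%, background 7.0%). The kidney share was close to its background, and the liver share was lower than its own. The highest distal contact of any bait in liver was the window at 280 to 300 kb on the left, which holds the start of Abca1, the transporter that loads cellular cholesterol onto apolipoprotein A-I. It had 0.544 in liver (deposited SD 0.0407) and 0.412 in kidney (0.0405). In kidney the window furthest above its decay was instead at 320 to 340 kb, inside Abca1, with 0.403 in liver and 0.487 in kidney. Liver and kidney thus exchanged order within the same gene over adjacent stretches of the map. Abca1 RNA in kidney was 3.22 ± 0.543 TPM (SD, n = 12). The window at 200 to 220 kb on the left, which overlaps no protein-coding gene, had 0.469 in liver and 0.342 in kidney. At 720 to 740 kb on the left, in a stretch with no gene, liver was near the bottom of the scale with 0.00678 (0.0221) while kidney had 0.103 (0.0231).

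From the Slc45a3short bait, 5 windows were higher in liver (2.78%, background 6.0%), all on the left. In kidney 13 were higher (7.22%, background 9.0%), of which 12 were on the right. Both shares were below their backgrounds. The right-hand windows lay between 200 and 500 kb except 1 at Sox13, and cover Lemd1, Nuak2, Tmcc2 and Dstyk. The window at 280 to 300 kb, at the end of Lemd1, had 0.124 in liver (deposited SD 0.0310) and 0.264 in kidney (0.0301), the widest gap of this bait. The window at 340 to 360 kb holds the start of Nuak2, a kinase related to AMPK. It stood furthest above the decay in both tissues and had 0.255 in liver (0.0389) and 0.354 in kidney (0.0374). Nuak2 had 32.4 ± 8.71 TPM (SD, n = 12) in kidney, while Lemd1 had 0.0183 TPM. On the left, the window at 300 to 320 kb in Ctse, the aspartic protease cathepsin E, had 0.189 in liver (0.0364) and 0.106 in kidney (0.0360). The window at 340 to 360 kb, at the end of the vasopressin receptor gene Avpr1b, had 0.158 and 0.0835. Between them lay a dip in both tissues, with 0.0521 in liver and 0.0190 in kidney.

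The Slc45a3long bait lies 8444 bp away and gave 0 windows past 0.05 in either direction (background 0.5% for liver and 2.0% for kidney). Its signal was lower. Over the 5448 distal fragments read from both baits, Slc45a3short averaged 0.0695 in liver and 0.0758 in kidney, and Slc45a3long 0.0394 and 0.0382. The profiles of both baits correlated across those fragments at 0.788 in liver and 0.901 in kidney, over fragments that share distance from the bait. In the Lemd1 window, Slc45a3long had 0.107 in liver and 0.142 in kidney, the same order as Slc45a3short with a smaller gap. In the Nuak2 window it had 0.141 and 0.140, and in the Ctse window 0.0652 and 0.0622, so these gaps of Slc45a3short were not seen from the neighbouring bait. The widest liver excess of Slc45a3long, at 260 to 280 kb on the left where Rab7b, a late endosomal GTPase, begins, was 0.112 against 0.0663. Read from Slc45a3short, the same stretch had 0.112 and 0.126.

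From the Pi3kap1 bait, 5 windows were higher in liver (2.78%, background 10.5%) and 27 in kidney (15.0%, background 14.5%), the largest count of the 5 baits. The kidney share was thus close to that of all windows of this bait. With the median difference removed, the counts were 9 and 22. The longest run lay on the right from 220 to 380 kb, 8 windows on chromosome 19 from 41604767 to 41764766 over Slit1, an axon guidance ligand, and averaged 0.137 in liver and 0.223 in kidney. Within it, the window at 260 to 280 kb had 0.103 in liver (deposited SD 0.0304) and 0.219 in kidney (0.0294). On the left, 6 windows from 200 to 320 kb averaged 0.128 in liver and 0.221 in kidney. They cover Tll2, a tolloid-like metalloprotease, and Opalin, a myelin gene. The window at 280 to 300 kb in Tll2 had 0.128 in liver (0.0379) and 0.273 in kidney (0.0384), the widest gap of any distal window. RNA of these genes was scarce in kidney. Slit1 had 0.0376 TPM, Tll2 had 0.0004 TPM and Opalin was listed at 0 in all 12 libraries. Further out on the right, 5 regions of 1 or 2 windows between 1480 and 2000 kb were higher in kidney, all inside Hpse2, a heparanase relative. In the first of them liver had 0.0257 and kidney 0.0878, and in the last 0.0252 and 0.0821.

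The 5 windows higher in liver from this bait lay further out than the near kidney runs. The widest gap was at 580 to 600 kb on the right, with 0.126 in liver (deposited SD 0.0274) and 0.0582 in kidney (0.0269). That window holds the starts of Mms19, which serves iron-sulfur protein assembly and had 22.0 ± 5.12 TPM (SD, n = 12), and Ubtd1, with 7.51 ± 0.532 TPM (SD, n = 12). On the left, the window at 740 to 760 kb inside Entpd1, the ectonucleotidase CD39, had 0.111 in liver and 0.0470 in kidney. Another Entpd1 window, at 680 to 700 kb, had the opposite order with 0.0495 in liver and 0.125 in kidney.

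An edge was taken, per side and tissue, as the position of the largest drop in signal after the fitted decay was removed, comparing 100 kb on the bait side with the 100 kb beyond. The liver and kidney edges lay within 60 kb of each other on 5 of 10 sides, and at the same position on 3. On the Mreg left side both lay at 660 kb, just past the Atic start. Mean signal went from 0.152 to 0.0463 across it in liver and from 0.0819 to 0.0485 in kidney. On the Mreg right side both again lay at 660 kb, at Igfbp5 and near Igfbp2, which encode binding proteins of insulin-like growth factors. Liver went from 0.0647 to 0.0211 and kidney from 0.0588 to 0.0166. Igfbp5 RNA was 91.0 ± 16.3 TPM (SD, n = 12) in kidney. Edge positions thus coincided in both maps on either side of Mreg, while the levels on the bait side of them differed, higher in liver on the left and in kidney on the right from 200 to 500 kb.

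The Slc44a1 left edge was at 420 kb in liver and 380 kb in kidney, on either side of 400 kb near the start of Nipsnap3b. Signal went from 0.336 to 0.0961 in liver and from 0.413 to 0.207 in kidney, which were the largest drops of all sides in both tissues. The right edge of Slc45a3short was at 400 kb in both tissues and that of Slc45a3long at 400 kb in liver and 420 kb in kidney, between Nuak2 and Dstyk and within Tmcc2. Slc45a3short went from 0.214 to 0.124 in liver and from 0.280 to 0.181 in kidney there. These baits share their surroundings, so their edges are not separate observations.

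On the other 5 sides the edges lay 180 to 720 kb apart. The closest pair was Slc44a1 right, at 480 kb in liver and at 300 kb in kidney, the nearest position tried. Both tissues dropped at both positions there. Liver dropped by 0.0522 at 300 kb and 0.0800 at 480 kb, and kidney by 0.106 and 0.0687. For Slc45a3short left the liver edge was at 940 kb, near Il10, and the kidney edge at 300 kb, near Rab7b and Ctse. For Slc45a3long left the liver edge was at 1300 kb, near C4bp and Zp3r, and the kidney edge at 920 kb, near Il10. Slc45a3short in liver and Slc45a3long in kidney therefore placed their left edge near the same gene. On the Slc45a3short left side, kidney dropped nearly as much at 940 kb (0.0448) as at its own edge of 300 kb (0.0458). That edge is also the nearest position tried, and the liver residual did not drop there (-0.0256). The 640 kb between these edges thus rests on a near tie in kidney. For Pi3kap1 the liver edges, at 1100 kb on the left near Pdlim1 and 820 kb on the right near Sfrp5, lay far outside the kidney edges, at 380 kb on the left near Dntt and Blnk and 420 kb on the right near Arhgap19 and Frat1. At the kidney edges of this bait, kidney went from 0.199 to 0.122 on the left and from 0.210 to 0.133 on the right. At the same right-hand position the liver residual did not drop (-0.00693). Across all 81 positions tried per side, drops in the tissues correlated at 0.610 to 0.934 on the 8 sides of the other baits, at 0.355 on the Pi3kap1 left side and at -0.227 on its right side. Neighbouring positions overlap, and these coefficients are descriptions.

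Since CTCF sites are known at many domain borders, a core of its motif (CCA, any 2 letters, AG, any 2 letters, GGC) was searched on both strands within 40 kb of the midpoint of each shared edge. Its 8 fixed letters occur often: 64.3% of the 900 distal windows hold at least 1 match, as do 72.7% of the 33 windows touching an edge. The match nearest each shared edge is printed 5′ to 3′ on its own strand (GRCm38), core in capitals, and the nearest to both Slc45a3 right edges is the same.
Mreg left edge (chr1:71547371-71547400, minus strand): gctcctcacCCAACAGCAGGCgtagggcga
Mreg right edge (chr1:72865997-72866026, plus strand): tctaggtggCCAGTAGGTGGCgcaggagac
Slc44a1 left edge (chr4:53071248-53071277, minus strand): tcagacacaCCAGAAGAGGGCatctgatct
Slc45a3short right edge (chr1:132378585-132378614, plus strand): aggtcactgCCATCAGCAGGCtctccctgc
The first lies 5.28 kb from the Mreg left edge in intergenic sequence, with 6 matches in the stretch searched. The Mreg right match is intronic, 6.65 kb from the edge, with 7 matches. The Slc44a1 match lies 31.0 kb away in an intron, and only 2 matches were found there. The Slc45a3 match is intronic, 7.21 kb from the Slc45a3short edge, with 4 matches. A match is a string of letters, and no binding was measured.

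The distal stretches hold between 15 and 56 protein-coding gene starts per bait, fewest around Slc44a1 (15) and Mreg (16) and most around Slc45a3. Pooled over the baits, windows holding a start had a median residual of 0.00128 in liver and 0.00227 in kidney over 165 windows, against -0.00281 and -0.00138 over the 735 without a start. The order was the opposite for Slc44a1 in both tissues (-0.0223 against -0.00098 in liver, -0.00884 against -0.00381 in kidney) and for Pi3kap1 in kidney (-0.0109 against 0.00037). Parting the starts by kidney RNA widened this. The 87 windows with the start of a gene at 1 TPM or more had 0.0127 in liver and 0.00876 in kidney, and the 78 with starts of other genes only had -0.00796 and -0.00678. The order was thus the same in the liver map, although the RNA is from kidney. These pooled counts hold the Slc45a3 surroundings from both of its baits. With only 1 of those baits kept, 59 windows with an expressed start had 0.0175 in liver and 0.00996 in kidney. The 59 with starts of other genes only had -0.0148 and -0.0069. By bait, windows with an expressed start had the higher median residual of those classes in both tissues for Mreg, Slc44a1 and both Slc45a3 baits. Only 7 Mreg and 6 Slc44a1 windows held such a start. In the Pi3kap1 kidney map, windows with an expressed start had -0.0204, below the -0.00079 of starts under 1 TPM. The Pi3kap1 liver map had 0.0119 and -0.00706. Windows of 1 bait share libraries, so these medians have no replicate check. Restricted to 1000 kb, the kidney gap between windows with and without a start turned to -0.00397, while that for expressed starts was 0.00933. Windows with an expressed start also lay nearer the bait (median 810 kb against 1150 kb) and were richer in G and C (46.0% against 42.4%) than those without a start, and the part of either was not tested.

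How alike the tissues were also depended on the bait. Across the 180 windows, liver and kidney signal correlated at 0.947 for Slc44a1, 0.916 for Slc45a3long, 0.879 for Slc45a3short, 0.799 for Pi3kap1 and 0.713 for Mreg. Much of this is the shared decay. With each tissue's own decay removed, the coefficient was 0.883 for Slc44a1, 0.663 for Slc45a3long, 0.654 for Slc45a3short and 0.441 for Mreg, but 0.111 for Pi3kap1. The Pi3kap1 bait was also the only bait read at ZT8, so the time and the locus cannot be told apart. Rank correlations of residuals with GC content, GATC number, gene starts and CTCF core matches ran from -0.259 to 0.201 over the 5 baits and both tissues. With the liver minus kidney difference they ran from -0.140 to 0.291, the highest for GC content around Mreg.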

How the data were processed

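The 4C-seq tables are a contact signal, a score that the authors deposited per restriction fragment and tissue, with a variance, per the file headers; its scale, the smoothing, the aligner and the caller are not given in the sources used here. Both libraries of a bait and tissue are already combined in it. The build was mm9 per the submitters' processing notes. Coordinates come from matching the fragment spacing to GATC sites of GRCm38. The deposited Z-scores and p-values were not used.

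Fragments beyond 200 kb were averaged in windows of 20 kb (at least 5 fragments each), 90 per side. The decay was a least-squares line on log10 distance, and the residual is signal minus that line. SDs are square roots of the deposited variance, for a window of its median. Differences are in signal units, since a true zero is not shown. Groups came from the labels. Computation used Python 3.11.15, numpy 2.4.6, pandas 2.3.3 and matplotlib 3.10.9. The window, slope and edge steps were run on simulated data. There the window check had the known tissue difference removed, so the rule for counting a window as different was not tested. Slopes were checked with the simulated domain step undone, so their recovery in stepped data was not tested.

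RNA values are TPM that the authors deposited per transcript, made with kallisto 0.42.4 on mm10 (GRCm38) per the submitters' processing notes. They were summed to genes through GENCODE M21, where 86031 of 88198 transcripts matched and the rest held 1.39% to 2.04% of TPM. The 12 columns of knockout libraries were not used, and TPM keeps no depth. RNA of the genes comes from mice of another strain and feeding regimen than the 4C-seq.

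Windows named were, per bait, the 2 with the largest excess in each tissue and the window furthest above the decay per tissue, plus every edge. Some windows outside this rule were also described after seeing the results. They are those at Sox13 and Hpse2, another in Entpd1, and the dip between the Ctse and Avpr1b windows. Genes named start in any of these windows or within 50 kb of an edge (up to 3), overlap the windows or the longest runs, or carry a bait. The members, lists and rules were chosen with earlier results of these data known. Alternatives covered window width, distance limits, medians, the size of a counted difference, centring on the median difference, scaling to the same mean, fit scale, edge flank and tolerance, and the TPM limit. Some windows and genes that these rules pick are not reported here.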

Additional observations from a re-analysis of the deposited data

How the results depend on the processing

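Across 75 recomputed values of the main results, 62 were counted as unchanged, as were 185 of 245 values of single windows, slopes and baits. For mean differences and gene-start contrasts this asked only for the same sign and a shift below the deposited SD of a difference. That SD is larger than these values, so their size was hardly checked. The Mreg mean difference counted as unchanged at 0.00781 up to 1000 kb, against 0.00023 in the main setting. Slopes on log10 signal or linear distance were judged by sign alone. Counts of different windows followed the rule: 71 higher in liver and 150 in kidney with 10 kb windows, 10 and 17 with 50 kb windows, 69 and 141 at a difference of 0.03, and 3 and 9 at 0.1. Removing each bait's median difference gave 36 and 44, with 9 and 22 for Pi3kap1, and scaling to the same mean gave 26 and 50. Windows starting at 300 kb gave a Mreg difference of -0.00010 and 1 bait higher in liver, and medians of fragments gave -0.00060 and 1. Up to 1000 kb, the kidney contrast of windows with a gene start was -0.00397. Slope differences (liver minus kidney) changed sign from 300 kb for Slc44a1 left (0.0262) and Pi3kap1 right (-0.0145), up to 1000 kb for Slc45a3short left (0.0416), and for Pi3kap1 right on log10 signal (-0.438) and linear distance (-0.00477); the cause was not tested. The 16 named windows past 0.05 kept their sign in 73 of 73 values. Those under changed distance limits only repeat the main values, because the fragments in a window stay the same. The windows were also picked for their large differences, so a kept sign is little check on them. Sides with like edges numbered 5 to 7, and sides steeper in liver 3 to 5. No paired analysis was possible because the deposited signal combines the libraries of a tissue, and leaving out each library was not run for that reason. Unknown depth limits every comparison of low signal.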
